A study of Mus musculus with 18 samples.

Results

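The data described here are the open chromatin regions of CD24-negative (CD24neg) lung epithelial cells that differed between mice given an inhibitor of G9a (G9ai) and mice given vehicle. Chromatin accessibility was measured by ATAC-seq, where an added transposase cuts accessible DNA and tags it for sequencing, and the deposited peaks carry the letters NFR in their names, read here as nucleosome-free regions. The cells came from the lungs of adult c57/bl6 mice of 6 to 12 weeks and were sorted as negative for CD31 and CD45, positive for Epcam and Sca-1, and negative for CD24. The vehicle and G9ai groups shared strain, age range and gate, and each library was made from 10000 cells. The design had 3 mice per arm and 3 populations sorted by CD24, or 18 samples, of which 10 had a peak list. The CD24neg comparison used 3 of these lists: G9ai replicates 2 and 3, and vehicle replicate 3. The vehicle side therefore had 1 library, so no difference below could be tested against the spread between vehicle mice. The sources used here do not give the dose, route or duration of treatment, the name of the inhibitor or the sex of the mice.

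After merging of peaks that overlapped by at least 1 bp, the 3 lists gave 12957 regions, out of 33312 over all 10 lists of the series. A region with a peak in both G9ai lists and none in the vehicle list was called G9ai-only, and there were 4015 of these (31.0%). A region with a peak in the vehicle list and in no G9ai list was called vehicle-only, and there were 8783 (67.8%). Both arms had a peak in 86 regions, and 73 had a peak in a single G9ai list, 36 of them in replicate 2 and 37 in replicate 3. The members described here are the 12798 regions of the first 2 kinds.

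G9a, encoded by Ehmt2, works in a complex with its relative GLP (Ehmt1) and methylates lysine 9 of histone H3 (H3K9), a mark of silent chromatin in gene-rich parts of the genome. HP1 proteins bind methylated H3K9, and UHRF1 links the mark to maintenance of DNA methylation. In the lung, Epcam marks epithelial cells, which include alveolar type 1 and type 2 cells and the club, goblet, multiciliated and basal cells of the airways. Sca-1, encoded by Ly6a, and CD24 are surface proteins used to separate airway and alveolar progenitor populations.

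The lists were short parts of the peaks called per library. The G9ai lists held 4173 and 4149 peaks after 180 and 158 repeated lines were dropped, and the vehicle list 8870 after 148. Their median widths ran from 142 to 160 bp. Peak numbers, which count the peaks called in a library, reached 84567, 79282 and 85201, so the lists held 4.94%, 5.23% and 10.4% of that number. Of the peaks of G9ai replicate 2, 99.1% overlapped one of replicate 3, and 1.80% overlapped a vehicle peak. Sharing between the G9ai libraries and absence from the other arm were thus already present in the files, and the sources used here do not say how the lists were reduced. A gene without a listed region may be open in both arms. No read counts came with the lists, so depth is unknown. Intervals given below are 95% Wilson intervals and cover counting error only.

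The vehicle library stood apart on chromosome Y. Of its vehicle-only regions, 5 lay on Y, all at the starts of genes active in male cells. Eif2s3y, a translation factor gene, had regions at 1010228 to 1010365 and 1010509 to 1010613, with scores of 222 and 86. Uty, a histone demethylase relative, had regions at 1245433 to 1245524 and 1245688 to 1245901, with scores of 64 and 296, and Ddx3y, an RNA helicase gene, had one at 1286484 to 1286721 with a score of 188. In the G9ai lists none of these genes had a peak, and the 1 G9ai-only region on Y lay at 90744506 to 90744595. The CD24high list of vehicle replicate 3, whose peak names carry the same library prefix, listed the same 3 Y genes, while the CD24low list with that prefix listed none of them. Xist, the RNA that silences an X chromosome in female cells, had no peak in the 3 CD24neg lists. It had a peak in both G9ai lists of CD24high and in both vehicle lists of CD24low. Those CD24high G9ai lists carry the prefixes of the CD24neg G9ai lists, while the CD24low G9ai lists with the same prefixes had no Xist peak. The CD24low list of vehicle replicate 3, with an Xist peak, carries the prefix of the lists with Y peaks. What a prefix stands for is not given. With 1 vehicle library, a difference between mice and a difference between treatments cannot be told apart, and the part of the Y regions' source in the other vehicle-only regions was not tested. Without chromosomes X and Y, 3924 G9ai-only and 8584 vehicle-only regions were left. Chromosome X itself held 2.24% of the regions of the G9ai-only set and 2.21% of the other set.

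The following sequences show what the regions look like at gene starts. Each is the 250 bases before an annotated start (RefSeq, GRCm38.p6, the same assembly as mm10), 5′ to 3′ on the gene's strand, with capitals for bases inside the listed region. The first 4 lay in G9ai-only regions and were chosen for a lineage regulator, a caveola gene, a DNA methylation factor and a cilium gene. The last 4 lay in vehicle-only regions and show a water channel gene, an H3K9 reader gene and a pair of Y genes.
Sox2, chr3:34649745-34649994, + strand: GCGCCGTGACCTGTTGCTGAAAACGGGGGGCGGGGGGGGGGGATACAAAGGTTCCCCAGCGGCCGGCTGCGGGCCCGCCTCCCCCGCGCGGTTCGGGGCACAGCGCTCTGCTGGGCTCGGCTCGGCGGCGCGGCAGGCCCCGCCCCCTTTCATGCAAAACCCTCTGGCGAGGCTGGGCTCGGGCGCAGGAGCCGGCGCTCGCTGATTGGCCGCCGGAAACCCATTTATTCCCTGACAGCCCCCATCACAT
Cav2, chr6:17280935-17281184, + strand: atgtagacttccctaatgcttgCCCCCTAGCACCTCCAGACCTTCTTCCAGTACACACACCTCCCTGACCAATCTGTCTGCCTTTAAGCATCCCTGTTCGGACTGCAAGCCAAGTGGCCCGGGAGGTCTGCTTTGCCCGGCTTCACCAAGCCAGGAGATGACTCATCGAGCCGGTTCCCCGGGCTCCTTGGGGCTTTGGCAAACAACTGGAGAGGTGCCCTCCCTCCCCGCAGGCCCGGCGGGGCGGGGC
Uhrf1, chr17:56303087-56303336, + strand: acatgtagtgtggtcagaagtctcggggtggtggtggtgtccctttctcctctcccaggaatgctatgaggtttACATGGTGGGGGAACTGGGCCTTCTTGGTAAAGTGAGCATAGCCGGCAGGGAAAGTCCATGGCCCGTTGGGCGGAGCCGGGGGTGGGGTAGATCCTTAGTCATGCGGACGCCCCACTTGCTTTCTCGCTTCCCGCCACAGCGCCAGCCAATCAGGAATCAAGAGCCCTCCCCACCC
Hydin, chr8:110266727-110266976, + strand: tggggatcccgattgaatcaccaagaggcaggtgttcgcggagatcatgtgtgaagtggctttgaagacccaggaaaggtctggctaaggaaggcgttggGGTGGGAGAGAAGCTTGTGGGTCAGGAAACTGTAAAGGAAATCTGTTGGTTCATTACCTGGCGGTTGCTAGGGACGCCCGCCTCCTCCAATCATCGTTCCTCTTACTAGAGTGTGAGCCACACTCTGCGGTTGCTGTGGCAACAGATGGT
Aqp5, chr15:99590778-99591027, + strand: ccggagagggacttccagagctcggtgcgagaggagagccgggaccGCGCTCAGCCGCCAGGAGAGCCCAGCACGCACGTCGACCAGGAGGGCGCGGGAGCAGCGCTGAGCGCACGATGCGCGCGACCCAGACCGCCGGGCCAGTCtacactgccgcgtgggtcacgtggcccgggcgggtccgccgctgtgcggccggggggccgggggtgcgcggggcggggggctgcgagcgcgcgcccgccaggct
Cbx5, chr15:103239853-103240102, - strand: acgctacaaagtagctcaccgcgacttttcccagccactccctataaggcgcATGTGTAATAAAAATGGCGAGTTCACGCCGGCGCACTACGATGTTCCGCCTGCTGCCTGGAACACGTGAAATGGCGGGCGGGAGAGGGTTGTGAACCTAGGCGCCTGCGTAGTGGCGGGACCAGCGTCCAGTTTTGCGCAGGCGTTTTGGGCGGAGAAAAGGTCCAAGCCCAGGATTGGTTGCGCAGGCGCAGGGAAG
Uty, chrY:1245760-1246009, - strand: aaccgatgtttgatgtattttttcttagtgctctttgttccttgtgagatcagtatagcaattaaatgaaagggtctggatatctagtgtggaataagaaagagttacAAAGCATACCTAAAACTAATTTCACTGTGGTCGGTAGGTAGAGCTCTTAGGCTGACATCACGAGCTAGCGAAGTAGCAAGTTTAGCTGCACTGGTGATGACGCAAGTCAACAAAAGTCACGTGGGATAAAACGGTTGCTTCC
Ddx3y, chrY:1286614-1286863, - strand: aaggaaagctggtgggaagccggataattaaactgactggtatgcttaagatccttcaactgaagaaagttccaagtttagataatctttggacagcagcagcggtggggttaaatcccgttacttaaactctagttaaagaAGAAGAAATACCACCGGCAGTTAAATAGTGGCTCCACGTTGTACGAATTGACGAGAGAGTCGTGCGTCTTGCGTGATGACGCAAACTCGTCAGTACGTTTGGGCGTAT
The Sox2 region covered all 250 bases, which held 27 CpG pairs and 72% G and C. The Cav2 region covered 228, the Uhrf1 region 176 and the Hydin region 150 of theirs. The vehicle-only regions covered 100 bases before Aqp5, 198 before Cbx5, 142 before Uty and 108 before Ddx3y. The Uty and Ddx3y stretches had 40.8% and 44.4% G and C, and the Aqp5 stretch 78.4%, with 38 CpG pairs.

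Where the regions lay relative to genes was the first comparison. G9ai-only regions were more often at gene starts than vehicle-only regions. Shares relative to starts were taken on the chromosomes with starts in the table used here, which held 3870 G9ai-only and 8475 vehicle-only regions. Of the G9ai-only regions 306 overlapped a promoter window, the 250 bases before to 50 after an annotated start (7.91%, interval 7.10% to 8.80%). Of the vehicle-only regions 402 did (4.74%, 4.31% to 5.22%). Since G9ai-only regions are unions of peaks from 2 lists, with a median width of 190 bp against 141 bp, the share was also taken over the peaks of each list. It was 6.99% in G9ai replicate 2, 7.68% in G9ai replicate 3 and 4.76% in the vehicle library, so both G9ai lists lay above the vehicle list. By the centre of the region, 15.1% of the G9ai-only set (14.0% to 16.3%) and 11.9% of the vehicle-only set (11.2% to 12.6%) lay within 1000 bp of a start. The difference was carried by the bins nearest to the start. In the 200 bp before a start lay 3.75% and 2.58% of the regions, in the 200 bp after it 3.54% and 1.86%, and from 400 to 600 bp after it 1.34% and 1.48%. With 1 vehicle library these shares have no replicate check on that side. The 2 G9ai lists held nearly the same peaks (99.1% of those of replicate 2 overlapped replicate 3). Their agreement is therefore no replicate check either.

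**Figure D1:**
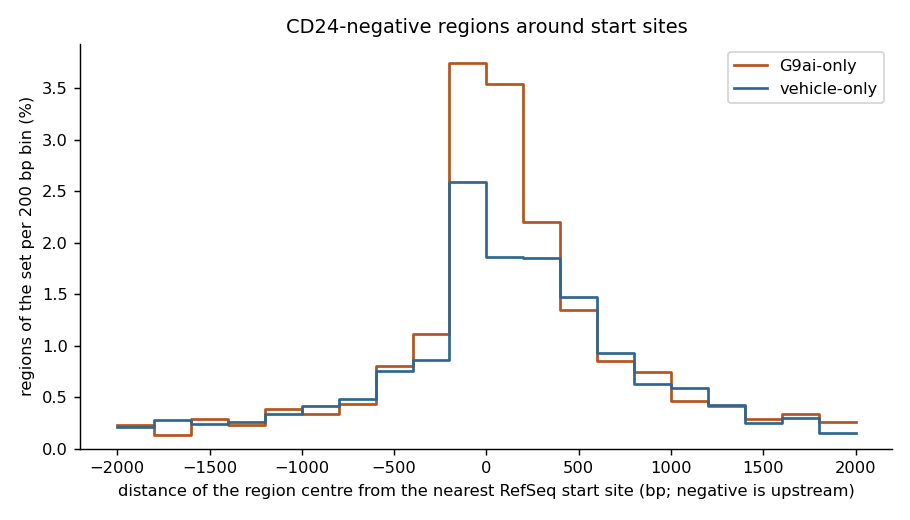
Regions of each set per 200 bp bin (% of the set on chromosomes with starts, vertical axis) against the distance of the region centre from the nearest RefSeq start site (bp, horizontal axis, negative is upstream). Both sets peak at the start; the G9ai-only line is higher from -400 to 400 bp (3.75% against 2.58% in the bin just upstream) and the lines run close together beyond it.

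Away from starts the shares of the sets were closer. Inside gene spans and over 1000 bp from a start lay 48.4% of the G9ai-only set and 50.9% of the vehicle-only set. Outside genes but within 50 kb of a start lay 20.03% and 21.5%, and farther out 16.5% and 15.9%. The median distance to a start was 23268.5 bp and 25177 bp. On the chromosomes the G9ai-only share of members was 31.4% in all (30.6% to 32.2%) and, over the autosomes, ran from 28.6% on chromosome 14 to 36.1% on chromosome 15 (32.1% to 40.3%). Regions of opposite sets could lie side by side. Within 1000 bp of a G9ai-only region there was a vehicle-only region in 239 cases (5.96%), and within 10 kb in 892 (22.2%).

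The share at promoters differed with score on the G9ai side. With G9ai-only regions split by score into 4 classes of like size, from low to high, 4.86%, 8.89%, 7.55% and 10.3% overlapped a promoter window. For vehicle-only regions the shares were 4.11%, 4.77%, 5.62% and 4.48%, with no such step from the lowest to the highest class. Width rose with score as well. From the lowest to the highest class the median went from 166 to 222.5 bp in the G9ai-only set and from 116 to 163 bp in the vehicle-only set. The part of width in these shares was not tested. In the CD24low lists the order of the arms at promoters was the opposite, with 6.20% and 6.24% of G9ai peaks and 11.7% and 11.4% of vehicle peaks. In CD24high the G9ai lists had 8.44% and 8.96% and the vehicle list 4.74%. The shorter lists of a population had the higher share in all 3, and the part of list length in it was not tested.

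The letters of the promoters were compared next. Promoter windows overlapped by either set were richer in CpG than the 21262 windows of 17491 protein-coding genes. At least 10 CpG pairs were held by 76.0% of the 342 windows with a G9ai-only region (71.2% to 80.2%), 76.8% of the 431 with a vehicle-only region and 56.8% of all windows. The GC box GGGCGG, the site of SP and KLF factors, stood in 62.6% of G9ai-only, 54.3% of vehicle-only and 46.2% of all windows. The TATA box TATAAA stood in 5.26%, 10.7% and 12.6%, and CTCAAG, read by NKX2 factors, in 9.36%, 16.0% and 15.4%. The ETS motif CCGGAAG stood in 15.5%, 10.4% and 11.6%, and the cyclic AMP response element TGACGTCA in 4.09%, 1.86% and 2.23%. The remaining motifs were CCAAT (33.0%, 27.2% and 38.2%), the E-box CACGTG (10.8%, 10.7% and 7.84%), the AP-1 site TGANTCA (6.73%, 5.57% and 6.99%), the forkhead site GTAAACA (3.801%, 2.78% and 3.01%) and the TEAD site GGAATG (12.0%, 10.2% and 13.6%). All were searched on both strands, and none contains another. A match is a run of letters in the window and not a bound site. In the printed stretches the GC box occurs 2 times each before Sox2, Aqp5 and Cbx5 and not before Hydin, Uty or Ddx3y.

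**Figure D2:**
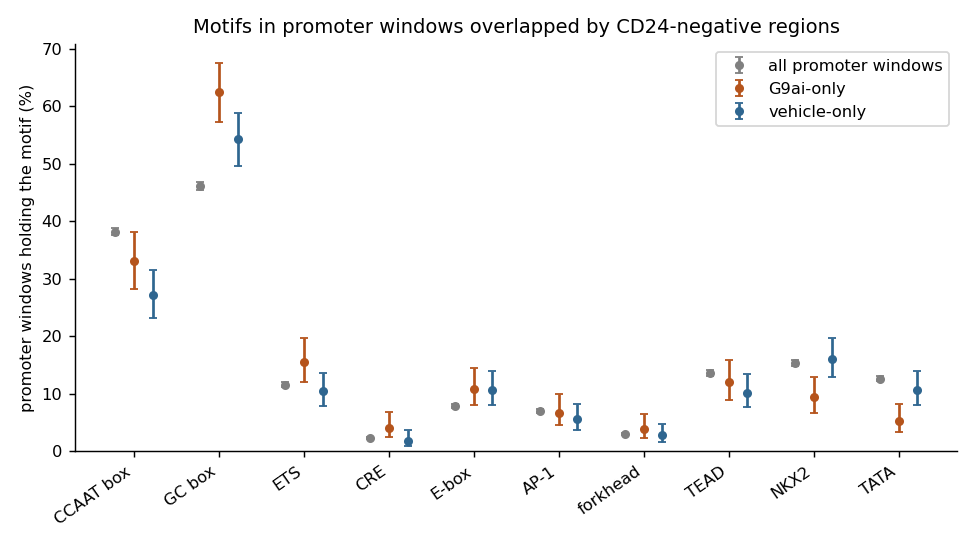
Share of promoter windows holding each motif (%, vertical axis) for all windows (grey), windows overlapped by G9ai-only regions (orange) and by vehicle-only regions (blue); bars are 95% Wilson intervals. The GC box is the most frequent motif in all 3, and windows of G9ai-only regions hold the TATA and NKX2 letters less often than all windows (5.26% against 12.6%, and 9.36% against 15.4%).

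The score of a region, the authors' peak score on a scale not given in the sources used here, was read only as a rank within its own list. The 2 G9ai libraries ranked the same regions differently. Across the 4015 G9ai-only regions the scores had a Spearman correlation of 0.27 between replicates, a description over regions that share their libraries. The percentile differed by over 25 points in 1890 regions (47.1%), and the median difference was 23.1 points. Of the 411 regions in the top 10% in replicate 2 and the 400 in replicate 3, 117 were shared, or 28.5% and 29.3% of each.

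Single genes show this spread. The region at the start of Sox2, a transcription factor gene of airway progenitors, lay at chr3:34649579-34650007 and had a score of 50 in replicate 2 (percentile 8.66) and 372 in replicate 3 (percentile 99.2). Its mean percentile was 53.95, and its high rank came from 1 library. Hydin, whose protein belongs to the central pair of motile cilia, had 62 and 200 (percentiles 29.3 and 97.2). Other regions were high in both libraries. Tprgl had 164 and 1152, the latter the highest score of replicate 3, and a mean percentile of 98.47. Khdrbs1, an RNA-binding protein gene, had scores of 574 and 691 (percentiles 99.9 and 99.9), and Dennd2c, a Rab regulator, 359 and 546. Sema3b, a secreted semaphorin, had 340 and 407, Pik3ca, the catalytic subunit of phosphoinositide 3-kinase, 266 and 323 at its promoter window, and Hes7, a bHLH repressor of the Notch pathway, 225 and 242.

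**Figure D3:**
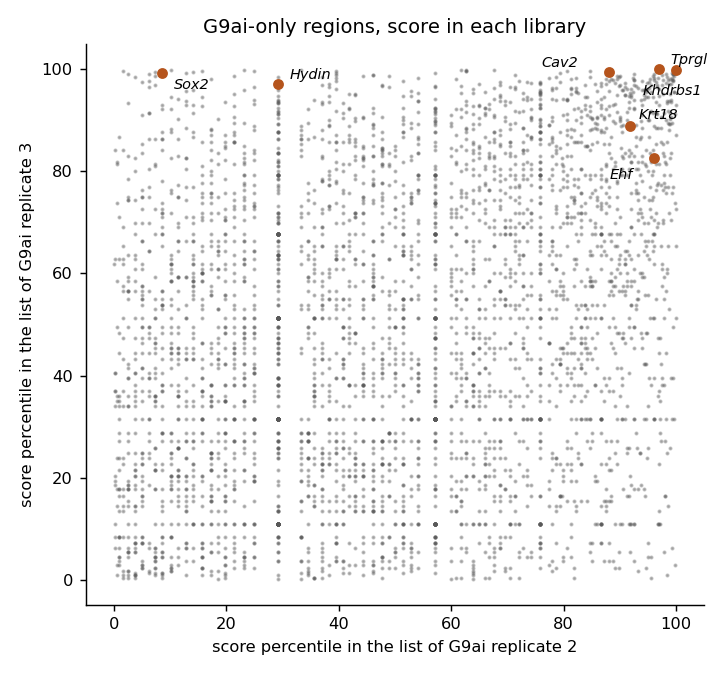
Score percentile of each of the 4015 G9ai-only regions in the list of G9ai replicate 2 (horizontal axis) and of replicate 3 (vertical axis), with the highest-ranking region of 7 genes in orange. The points fill the whole square; Khdrbs1 is at the top in both lists, while Sox2 is at percentile 8.66 in one and 99.2 in the other.

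On the vehicle side the high-scoring regions named here were picked among those linked to genes, and some lay at gene ends or promoter windows. Of the highest-scoring class of vehicle-only regions 4.48% overlapped a promoter window, against 4.74% of the whole set. The region with the top score, 1199, lay at chr5:21424652-21425329 across the gap between the neighbouring genes Ccdc146 and Fam185a, reaching into both spans. Scores of 918 and 802 belonged to the promoters of Psma4 and Psma3, both subunits of the proteasome core. Mark2, a polarity kinase, and Mrps9, a mitochondrial ribosome protein, had 555 each. Vehicle scores come from 1 library and have no replicate.

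Genes were linked to regions in their span or 1000 bp either side. G9ai-only regions lay in 2319 of 21883 protein-coding genes (10.6%) and vehicle-only regions in 4126 (18.9%). Of these, 1293 had regions of the G9ai-only set alone, 3100 of the vehicle-only set alone and 1026 of both. Long genes collect more regions: genes with both had a median length of 96.6 kb, against 31.5 kb with G9ai-only regions alone, 37.6 kb with vehicle-only regions alone and 17.2 kb over all genes. Within 1000 bp of either gene end the counts were 815 (3.72%) and 1425 (6.51%). At promoter windows they were 310 (1.77%) and 409 (2.34%) of 17491 genes, and 9 genes had both sets in their windows, among them Tead3, Hdac7 and Gabpb1. The gene lists below are read against these shares and, for length, against 2.59 G9ai-only and 5.51 vehicle-only regions per Mb of all genes. Of the regions linked to all genes 32.0% were G9ai-only.

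Alveolar type 2 genes, which make and recycle surfactant, held mostly vehicle-only regions. Of 22 such genes 10 had a vehicle-only region and 3 a G9ai-only region, with 17 and 3 regions, or 27.5 and 4.85 per Mb. Lamp3, a lamellar body membrane gene, held the strongest, at chr16:19699125-19699634 inside the gene with a score of 529. Abca3, the lipid transporter of lamellar bodies, had 2 vehicle-only regions (scores 177 and 82), and Etv5, a transcription factor needed for these cells, had 3 (scores 74, 43 and 110). Napsa, a protease that processes surfactant proteins, and Muc1 had 1 each. Lpcat1, which remodels surfactant lipids, had 4 vehicle-only regions and 1 G9ai-only region, which lay 269 bp from its start (scores 69 and 55). Ctsh and Lgi3 had 1 of each. Sftpc had none. Of the 10 genes with a vehicle-only region 1 had one within 1000 bp of a gene end, and of the 3 genes with a G9ai-only region 2 had one there. No promoter window was overlapped among the 15 genes of the list that have one. Over all genes the shares were 1.77% and 2.34%, so 15 genes are too few to read this as a trait of the list. In bulk libraries a change in the share of a cell type and a change of chromatin within it cannot be told apart.

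Among alveolar type 1 genes, which serve the thin cells of gas exchange, 7 of 22 held vehicle-only regions and 3 G9ai-only regions, with 8.003 and 2.67 regions per Mb. The G9ai-only region of Cav2, a caveolin, was 822 bp wide and covered its start (chr6:17280957-17281778, scores 120 and 390). Aqp5, a water channel, had a vehicle-only region before its start (score 92). Limch1 held 4 vehicle-only regions and no G9ai-only one, and Lmo7, an adherens junction protein, held 6 and 3. Vegfa, the endothelial growth factor that these cells secrete, had 1 vehicle-only region with a score of 177. Ager and Hopx had none.

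Airway genes were split. In club and goblet genes G9ai-only regions lay in 5 of 26 and vehicle-only regions in 4, with 6 regions of each kind. Per length these were 8.60 regions per Mb each, beside 2.59 and 5.51 over all genes. Of the list's regions 50% were G9ai-only, against 32.0% over all genes. Cyp2b10, a cytochrome P450, had a G9ai-only region at its promoter window (scores 91 and 166), Cldn10, a claudin, had 2 G9ai-only and 1 vehicle-only region, and Creb3l1 had a vehicle-only region with a score of 197. Scgb1a1 had none. In multiciliated genes G9ai-only regions lay in 6 of 34 and vehicle-only regions in 9. These genes are long, with a median of 45.9 kb. Per length they held 1.905 and 2.86 regions per Mb, below the 2.59 and 5.51 of all genes. Promoter windows of both kinds were found there. On the G9ai side these were Hydin, Rfx3, a ciliary transcription factor (scores 94 and 73), and Spag6l, a central pair protein (76 and 110). On the vehicle side they were Ccdc39 (158) and Drc1 (57), which organise the axoneme, and Sec14l3 (229). Mcidas, the coactivator that starts multiciliogenesis, had a G9ai-only region 551 bp from its start (95 and 105), and Foxj1, the regulator of motile cilia, had a vehicle-only region 324 bp outside its span (121). Basal genes had G9ai-only regions in 3 of 18 and vehicle-only regions in 5, among them Trp63, the basal-cell regulator, with 1 vehicle-only region low in the list (score 55, percentile 8.42). The basal list held 6 G9ai-only and 8 vehicle-only regions, or 6.34 and 8.45 per Mb, and 42.9% of them were G9ai-only. Of the 6 G9ai-only regions 4 lay in the long gene Dst.

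**Figure D4:**
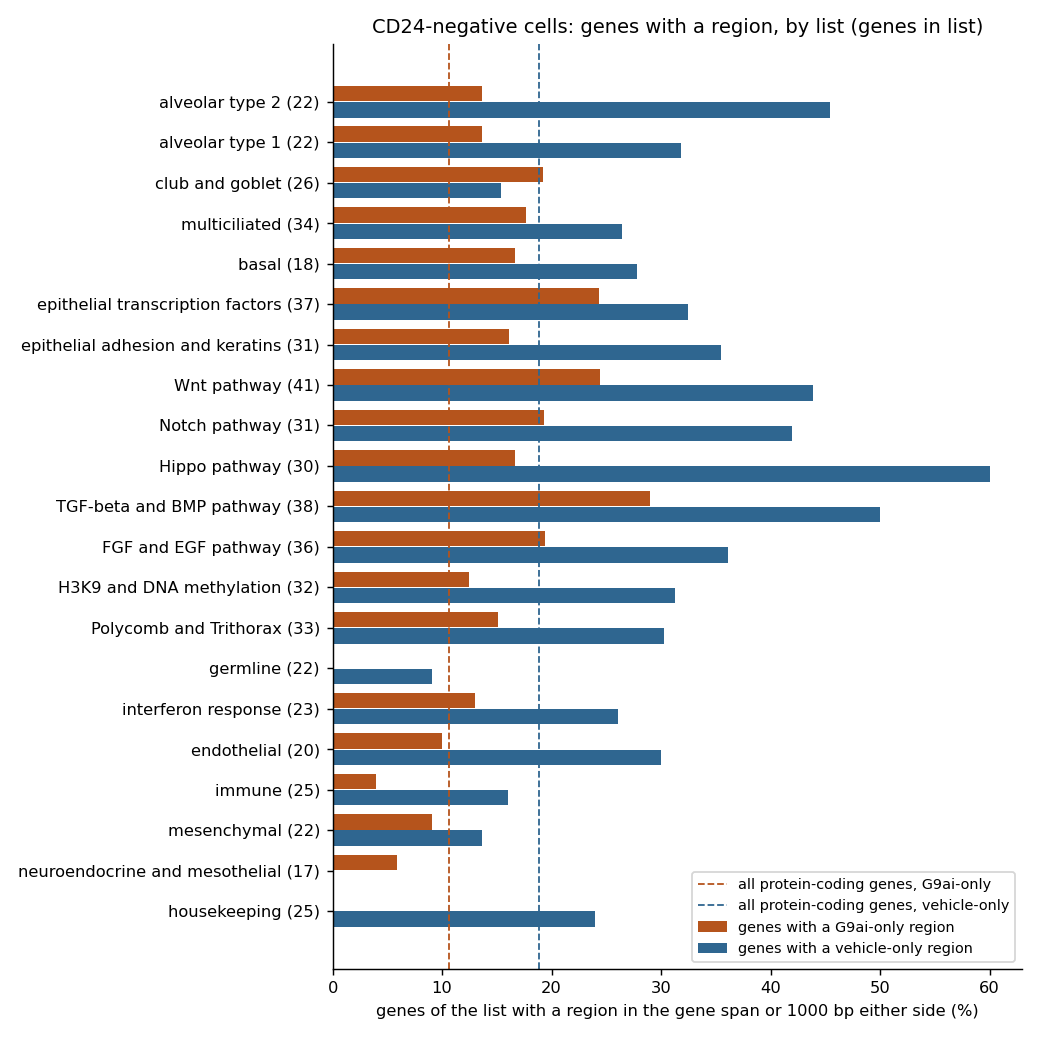
Share of the genes of each list with a G9ai-only region (orange) or a vehicle-only region (blue) in the gene span or 1000 bp either side (%, horizontal axis), with the number of genes in the list; dashed lines are the shares of all protein-coding genes. Alveolar type 2, TGF-beta and BMP, Wnt and Hippo lists have the longest blue bars, up to 60% of 30 Hippo genes, and gene length is not corrected for.

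Epithelial transcription factor genes had G9ai-only regions in 9 of 37 and vehicle-only regions in 12. At promoter windows the G9ai side had Sox2 and Foxa2, a pioneer factor of endoderm (scores 66 and 90), and the vehicle side had Klf4 (96) and Elk3 (129). Irx2, a homeobox gene, had a G9ai-only region 1280 bp from its start that was high in both libraries (169 and 290), and so had Ehf, an ETS factor of epithelia (155 and 129). Foxp1 held 4 G9ai-only and 6 vehicle-only regions, and Runx1 3 and 1. Klf5 and Elf5 had vehicle-only regions alone.

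Epithelial adhesion genes held more vehicle-only than G9ai-only regions. Of 31 genes for junctions and keratins 11 had a vehicle-only region and 5 a G9ai-only region, with 28 and 6 regions, so that 17.6% of the list's regions were G9ai-only against 32.0% over all genes. Pard3, a scaffold of cell polarity, held 7 vehicle-only regions and 1 G9ai-only region, Tjp1, the tight junction protein ZO-1, held 5 and 0, and Cdh1, E-cadherin, held 3 and 2. Cldn1, a claudin, and Tjp3 had vehicle-only regions at their promoter windows (scores 109 and 163). Krt18, a keratin of simple epithelia, had a G9ai-only region alone, 821 bp from its start (133 and 144).

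Hippo genes had the highest share with a vehicle-only region of the lists examined. This pathway restrains growth through kinases that hold the coactivators YAP and TAZ out of the nucleus, where they work with TEAD factors. Vehicle-only regions lay in 18 of 30 genes and G9ai-only regions in 5, with 30 and 5 regions, or 12.0 and 2.00 per Mb. Of the list's regions 14.3% were G9ai-only. The kinase genes Stk3, Stk4, Lats1 and Lats2 and the adaptor gene Sav1 had vehicle-only regions alone, and Lats1 had one at its promoter window (score 69). Wwc2, an upstream regulator, held 3 vehicle-only regions and 1 G9ai-only region, and Wwtr1, which encodes TAZ, held 4 and 1. Among the TEAD genes, Tead1 held 3 vehicle-only regions and Tead4 2. Tead3 had a vehicle-only region at chr17:28350304-28350372 (score 67) and a G9ai-only region at chr17:28350442-28350600 (52 and 103), both in promoter windows of the gene. The 5 genes with a G9ai-only region all held vehicle-only regions as well. The list's median gene length was 73.2 kb, and 7 of the 30 genes had a vehicle-only region within 1000 bp of a gene end.

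TGF-beta and BMP genes held vehicle-only regions in 19 of 38 and G9ai-only regions in 11, or 9.36 and 4.68 per Mb, and 33.3% of their regions were G9ai-only, near the share of all genes. Of the ligands, Inhba, which encodes an activin subunit, had a G9ai-only region at a promoter window (scores 48 and 106), Bmp5 had a G9ai-only region (59 and 53), and Tgfb1 (65), Tgfb2 (98), Bmp2 (161) and Bmp6 (148) had vehicle-only regions. Of the receptors, Bmpr2 had a G9ai-only region 511 bp from its start (129 and 145) and Tgfbr1 a vehicle-only region (126). Of the signal carriers, Smad5 and Smad9 had vehicle-only promoter windows (101 and 43), while Smad3 held 2 G9ai-only regions and 1 vehicle-only region. Of the repressors, Skil had a G9ai-only region high in both libraries (149 and 138), and a region 740 bp from the start of Ski differed between them (650 and 110).

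Wnt genes had vehicle-only regions in 18 of 41 and G9ai-only regions in 10, and 33.3% of their regions were G9ai-only. Of the ligands, Wnt7a and Wnt11 had vehicle-only promoter windows (scores 46 and 113). Of the receptors and their regulators, Lrp6 held 3 vehicle-only regions, Lgr5 and Lgr6 had G9ai-only regions alone (53 and 108, and 134 and 94), and Rnf43, a ligase that removes Frizzled receptors, held 2 G9ai-only regions and 1 vehicle-only region. Ctnnb1, which encodes beta-catenin, held 2 vehicle-only regions, and Gsk3b, the kinase that marks it for destruction, held 3. Of the nuclear factors, Tcf7 had a G9ai-only promoter window (73 and 100) and Lef1 a vehicle-only one (72). Axin2, a feedback target, had a G9ai-only region 421 bp from its start (63 and 135) and a vehicle-only region inside the gene (129).

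Notch genes had vehicle-only regions in 13 of 31 and G9ai-only regions in 6. The ligand genes Jag1 and Jag2 held 2 vehicle-only regions each. The receptor genes Notch1 and Notch2 held 2 G9ai-only regions and 1 vehicle-only region each, and the best of Notch1 had scores of 171 and 98. The targets Hey1, Heyl and Nrarp had vehicle-only regions alone (101, 72 and 90). FGF and EGF genes had vehicle-only regions in 13 of 36 and G9ai-only regions in 7. Per length these were 5.89 and 1.79 regions per Mb, against 5.51 and 2.59 over all genes. Fgfr4 had a G9ai-only promoter window (69 and 155), Braf a G9ai-only region high in both libraries (149 and 188) and the ligand gene Areg one 475 bp from its start (43 and 108). Fgfr2 held 2 vehicle-only regions, the ligand gene Tgfa 3, and Spred2, an inhibitor of the pathway, one at its promoter window (111) among 3.

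Most genes of the pathway that the inhibitor targets had no listed region, but the share without one was larger over all protein-coding genes (16464 of 21883). The median gene length of the list was 55.9 kb, against 17.2 kb over all genes. Of 32 genes for H3K9 and DNA methylation, 19 had none, 10 had vehicle-only regions (15 regions, 7.23 per Mb against 5.51 over all genes) and 4 had G9ai-only regions (4 regions, 1.93 per Mb against 2.59). Ehmt2, the target of the inhibitor, had no listed region, and Ehmt1 had 1 vehicle-only region inside the gene (score 126). On the G9ai side, Uhrf1 (77 and 172) and Wiz, a zinc-finger partner of G9a and GLP (59 and 88), had regions at their promoter windows, and Dnmt3a, a de novo DNA methyltransferase, had one inside the gene (63 and 111). On the vehicle side, Cbx5, which encodes HP1 alpha, had one at its promoter window (105) and another inside (177), Cdyl, a reader of the mark, held 3, and Tet1, which oxidises methylated cytosine, held 2. Dnmt3b, Setdb1, Kdm4b and Kdm4c had 1 vehicle-only region each. Polycomb and Trithorax genes had vehicle-only regions in 10 of 33 and G9ai-only regions in 5. Kdm2b, a CpG-island binding subunit, held 3 G9ai-only and 4 vehicle-only regions, 1 of the former at its promoter window (86 and 162), and Kmt2a had a G9ai-only promoter window (141 and 148).

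Germline genes, which G9a keeps silent in embryonic cells, had G9ai-only regions in 0 of 22, where 10.6% of all genes had one. The median length of the list was 51.7 kb, above the 17.2 kb of all genes. Vehicle-only regions lay in 2 of them, Tex11 and Tex15. Interferon-response genes had G9ai-only regions in 3 of 23 and vehicle-only regions in 6. Ddx58, the RNA sensor RIG-I, held 2 of each, with the stronger G9ai-only region 640 bp from its start (132 and 100), and Irf2 had a vehicle-only promoter window with a score of 300. Housekeeping genes had 0 of 25 and 6 of 25, with 0 and 6 regions, and this list is short, with a median length of 6.67 kb. Per length, housekeeping genes held 0 and 16.2 regions per Mb and interferon-response genes 9.02 and 16.2, beside 2.59 and 5.51 over all genes. These vehicle-only rates were above those of the Hippo (12.0) and epithelial adhesion (14.8) lists and below that of alveolar type 2 genes (27.5). A high vehicle-only rate was thus not particular to those lists.

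The labelled identity of the cells could not be checked from lists that leave out peaks shared by the arms: Epcam, Ly6a and Cd24a had no listed region. Pecam1 and Ptprc, which encode the CD31 and CD45 that the sort removed, had 1 vehicle-only region each (scores 175 and 109) and no G9ai-only region. Of cell types that the sort was set to remove or that may be few in it, endothelial genes had G9ai-only regions in 2 of 20 and vehicle-only regions in 6, immune genes in 1 and 4 of 25, mesenchymal genes in 2 and 3 of 22, and neuroendocrine and mesothelial genes in 1 and 0 of 17. Tek, an endothelial receptor, had a vehicle-only region with a score of 251, and Spi1, a myeloid transcription factor, had 2 (186 and 49). Other members lay on the G9ai side: Ecscr, an endothelial surface gene, had 2 G9ai-only regions alone, Vwf, the clotting factor of endothelium, had 2 G9ai-only regions and 1 vehicle-only region, and Rac2, a GTPase of blood cells, had 1 G9ai-only region alone. Per length, endothelial genes held 3.34 G9ai-only and 5.01 vehicle-only regions per Mb and immune genes 1.16 and 5.79, beside 2.59 and 5.51 over all genes. The part of such cells in either region set was not tested.

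Genes with the most regions were long. Cux1 held 7 G9ai-only and 4 vehicle-only regions over 319.5 kb and Ror1, a Wnt receptor, 7 and 6. Nav2 held 5 and 15, Plxna4, a semaphorin receptor, 0 and 10 over 443.6 kb, and Atxn1 0 and 9 over 415.2 kb. Plxna4 and Atxn1 were picked for their many vehicle-only regions, so their lean to that set follows from the choice. Of the regions linked to all genes 32.0% were G9ai-only.

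Whether the CD24neg regions followed the arm in other sorted populations was tested in the 7 lists of the CD24low and CD24high populations. For each list the share of its peaks on the CD24neg regions was taken, so that its length did not enter directly. On G9ai-only regions lay 5.33%, 5.33%, 5.68% and 5.71% of the peaks of the 4 G9ai lists and 4.09%, 6.18% and 6.15% of those of the 3 vehicle lists. The means were 5.51% ± 0.212 (SD, n = 4) and 5.47% ± 1.20 (SD, n = 3), a difference of 0.036 percentage points in an exact two-sided permutation test (p = 1, adjusted p = 1). The CD24low vehicle lists were the highest and the CD24high vehicle list the lowest, so the vehicle values enclosed the G9ai values. On vehicle-only regions lay 10.0%, 9.80%, 8.58% and 8.44% of G9ai peaks and 10.2%, 10.1% and 10.1% of vehicle peaks. The G9ai mean of 9.21% ± 0.812 (SD, n = 4) and the vehicle mean of 10.1% ± 0.041 (SD, n = 3) gave a difference of -0.92 percentage points. The exact two-sided permutation test gave p = 0.171, with an adjusted p of 0.343 over both region sets (Benjamini-Hochberg). The 3 vehicle lists lay above the 4 G9ai lists, the nearest of which was 10.0%. The 35 assignments of the arm labels can give no p below 0.0286. Lists of the same population and arm held nearly the same peaks and gave nearly equal shares. The CD24low G9ai lists, of 7379 and 7361 peaks, had 7172 G9ai-only regions with a peak in both. The n, the SDs and the assignments thus count near copies as separate lists. Of the 7 lists 6 carry the same library prefixes as the 3 CD24neg lists. If a prefix marks a mouse, which the sources used here do not say, these lists are independent neither of each other nor of the mice that defined the regions.

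**Figure D5:**
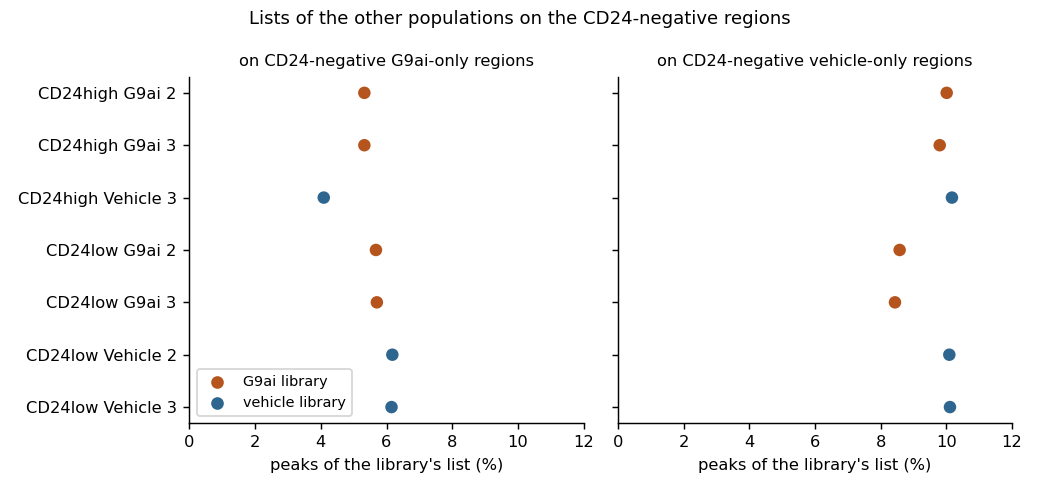
Share of the peaks of each CD24low and CD24high list (%, horizontal axis) that overlap CD24neg G9ai-only regions (left) or vehicle-only regions (right); each point is 1 library, orange for G9ai and blue for vehicle. On the left the arms overlap, and on the right the 3 vehicle lists lie between 10.1% and 10.2% with 1 G9ai list just below.

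By regions, the overlaps gave no single order of the other sets. CD24neg G9ai-only regions overlapped the CD24high vehicle-only set in 13.1% of their number (4.10% of that set), the CD24low G9ai-only set in 10.3% (5.77%), the CD24low vehicle-only set in 3.89% (6.20%) and the CD24high G9ai-only set in 3.69% (5.53%). CD24neg vehicle-only regions overlapped the same sets in 15.0% (10.2%), 7.06% (8.66%), 2.93% (10.3%) and 3.12% (10.2%). As a share of the CD24neg regions the 2 larger sets, of 12880 and 7172 regions, came first, and as a share of the other sets they did not.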

How the data were processed

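Libraries of 10000 sorted cells were made by ATAC-seq, per the labels' protocols, and processed with FastQC, Bowtie2 and MACS2 on mm10, per the submitters' processing notes; the sources used here do not give versions, transposase shift, duplicate removal or how the lists were reduced. Deposited values are the authors' score for each peak. Peaks carry library names, so they were called per library.

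Repeated lines were dropped, peaks merged at 1 bp of overlap, and regions classed by the arms that held a peak. Genes, promoter windows and sequences came from RefSeq tables of GRCm38.p6. Region counts and gene links had no test, since the vehicle side had 1 library; shares of the other lists were tested by permuting the arm labels exactly, adjusted over 2 region sets. The p-values measure the spread between these lists, and lists of the same population and arm nearly coincide. Replicate numbers do not pair the arms, since the mice of the arms were separate.

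The members, 22 gene lists (580 of 582 names matched; 10 names stood in more than 1 list) and tests were chosen with earlier results of these data known. Named genes were 13 fixed genes, up to 6 per list and set by score percentile, up to 12 per set outside the lists and up to 8 with the most regions, leaving out Gm, Rik and Olfr symbols. Examples of a pathway role outside this rule were chosen after their values were seen. Alternatives were the higher-scoring 50% of peaks, 50% overlap, equal list lengths, other gene windows, each library left out and, chosen after seeing the data, autosomes and unplaced sequence only. Merging, classes and gene links were tested on simulated data. Python 3.11.15, pandas 2.3.3, numpy 2.4.6, scipy 1.17.1 and matplotlib 3.10.9 were used.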

Additional observations from a re-analysis of the deposited data

Results flagged for a closer look

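The length of the lists differed between the arms in opposite directions in CD24neg and CD24low cells. The log2 ratio of G9ai to vehicle list length was -1.09 in CD24neg (2 against 1 library) and 1.53 in CD24low (2 against 2), and every pair of libraries had the sign of its population. In CD24high (2 against 1) it was -2.21, the direction of CD24neg. The share of peaks at promoter windows, G9ai minus vehicle, was 2.58 percentage points in CD24neg and -5.30 in CD24low, again with every library on its population's side. Lists of the same population and arm held nearly the same peaks, so the agreement of their libraries in length and promoter share is not a replicate check. Neither difference between populations was tested.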

How the results depend on the processing

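Of 60 recomputed values 42 were classed as the same. For region counts, gene counts and gene-end shares this meant a move within the limits set. For the tests of the other lists it meant only the same sign and an adjusted p that again did not pass. No limit on size was set there, so this class is no measure of how stable those differences were. In the higher-scoring 50% of peaks there were 1202 G9ai-only and 4393 vehicle-only regions in 817 and 2397 genes, and 20.5% of G9ai-only regions lay within 1000 bp of a gene end, against 18.2% over all scores and 15.2% of vehicle-only regions. With 4149 peaks per list, vehicle-only regions numbered 4095 in 2270 genes, by construction close to the G9ai-only number. Counting 1000 bp around gene ends alone gave 815 and 1425 genes. The share at gene ends was 13.1% and 10.3% at 500 bp and 25.2% and 23.3% at 2500 bp, higher on the G9ai side in each. G9ai-only regions were also wider at every setting (median 190 bp against 141 bp). The share at gene ends was not taken per list, so the part of width in it was not tested.

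The difference in shares on G9ai-only regions, 0.036 percentage points, had no stable sign. It was -0.15 in the higher-scoring 50%, -0.027 at 50% overlap and from -0.656 to 0.388 with each library left out, negative without CD24high vehicle replicate 3 (-0.656), CD24low G9ai replicate 2 (-0.021) or CD24low G9ai replicate 3 (-0.03). The cause was not tested. With a replicate block, pairing lists of the same population and number, the difference was 0.097 (exact sign-flip p = 1) on G9ai-only and -1.18 (exact p = 0.25, the smallest that 3 pairs allow) on vehicle-only regions. Permuted within population, it was 0.382 (exact p = 0.444) and -0.927 (exact p = 0.111). Replicate numbers do not pair mice across the arms. Depth is unknown, and 1 vehicle library limits every count.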

Other observations

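Regions also lay near microRNA hairpins. Of 1005 hairpins in the RefSeq table, 20 had a G9ai-only region within 1000 bp and 31 a vehicle-only region. Among the former were Mir34b and Mir34c, a pair known for their role in multiciliated cells, with a region at chr9:51103949-51104017, which lay 304 and 839 bp from the hairpins on their upstream side. Mir200c, of a family that keeps cells epithelial, had one at chr6:124719101-124719235, which lay 711 bp from its hairpin. These hairpins were named after their regions were seen. The mature sequences, with the seed (bases 2 to 8) in capitals, show that the 3p arms of the pair share a seed.
mmu-miR-34b-3p: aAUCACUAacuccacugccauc
mmu-miR-34c-3p: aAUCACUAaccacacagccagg
mmu-miR-34b-5p: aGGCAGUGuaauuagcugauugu
mmu-miR-200c-3p: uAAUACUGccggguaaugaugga
The regions are low to middling in their lists, with mean score percentiles of 46.5 for the pair and 57.0 for Mir200c. A vehicle-only region overlapped the hairpins of 7 microRNAs and a G9ai-only region those of 2.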
